A study of Mus musculus with 2 samples.

Results

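SR and hnRNP splicing factor genes were described in total RNA from neutrophils of mouse peripheral blood. A gene was included when it had a transcript typed as protein coding and a symbol that starts with Srsf or Hnrnp, or was Tra2a, Tra2b, Sf3b1, U2af1 or U2af2. The rule found 36 genes among 21901 genes with a protein-coding transcript. They fell into 13 SR genes (Srsf genes and both Tra2 genes), 20 hnRNP genes and 3 genes of 3' splice site recognition. The neutrophils were primary cells of adult C57BL/6J mice aged 5 to 6 weeks, with no treatment or genetic change named in the labels. There was 1 group with 2 libraries, numbered as biological replicates 1 and 2, each made from 100 ng of RNA. Both carry the same donor identifier and the sex was not collected, so the spread between them may be technical. No condition was compared, so no test between conditions was possible.

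Splicing removes introns from the primary transcript of a gene. SR proteins carry RNA-binding domains and a tail rich in arginine and serine, bind exon sequences and mostly promote the use of nearby splice sites. The hnRNP proteins coat nascent transcripts, and many of them repress splice sites when bound nearby. The U2AF dimer and the SF3B1 subunit of the U2 particle recognise the 3' end of the intron. Many of these genes are known to control their own output in mammals by including an exon with a premature stop codon, called a poison exon, or by keeping an intron. A transcript with such a stop upstream of an exon junction is a target of nonsense-mediated decay, a surveillance pathway that destroys it during translation. A transcript with a kept intron is often held in the nucleus.

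Expression was strong in the gene set as a whole. A gene counted as detected when its TPM, a level corrected for transcript length and library depth, reached 1 in each of the libraries. By that rule 35 of 36 genes were detected (97.2%), against 35.1% of all genes with a protein-coding transcript. Their median level was 22.4 and 18.7 TPM in replicates 1 and 2, against 4.43 and 4.16 TPM for the detected genes with a protein-coding transcript. The 40 proteasome genes had medians of 6.61 and 6.47 TPM, and the 92 ribosomal protein genes 73.1 and 68.1 TPM. The splicing factor genes lay 1.51 ± 0.15 above the proteasome genes on the log2(TPM + 1) scale and 1.74 ± 0.10 below the ribosomal protein genes (SD, n = 2), as differences of medians larger than the spread between libraries. Summed over the 36 genes, the level was 1304 and 1174 TPM, which is 1.45% and 1.38% of the TPM of genes with a protein-coding transcript.

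The scale of these values needs 3 facts. The main table held 22647028 (replicate 1) and 21471719 (replicate 2) expected counts in all, and the gene set had 1.02% and 0.983% of them. Genes with a protein-coding transcript took 9% and 8.53% of all TPM, and the rest lay in genes with no such transcript. Neutrophil markers summed to 3151 and 3099 TPM (10 of 10 detected, with Ly6g lowest at 1.91 and 2.29 TPM). B-cell markers were also detected in 10 of 10 cases and summed to 682 and 621 TPM, with none at 0. Red cell markers were detected in 5 of 6 cases (4328 and 4263 TPM), T-cell markers in 7 of 8 (30 and 30.1 TPM), monocyte markers in 4 of 6 (23.5 and 21.4 TPM) and platelet markers in 5 of 6 (23.9 and 24.3 TPM). The part of other blood cells in the levels of the splicing factor genes was not tested, and in bulk RNA fewer cells of a type and less RNA per cell cannot be told apart.

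Among the SR genes, Srsf5 stood first with 132 and 125 TPM in replicates 1 and 2. The next, Srsf3, which encodes the smallest SR protein and is known to link splicing to export of mRNA, had 53.6 and 46.9 TPM. The ranges of these 2 genes were far apart, with no overlap between libraries. Srsf1, the founding member of the family, had 34 and 28.8 TPM. The GAA-binding Tra2b had 32.1 and 28.8 TPM, Srsf11 had 32.5 and 27.6 TPM, and the ranges of Srsf1, Tra2b and Srsf11 overlapped, so their order is not set by these data. Srsf10, known as a repressor of splicing when dephosphorylated, had 27.9 and 24.9 TPM, Srsf7 25.3 and 26.2 TPM, Srsf2 19.5 and 17.4 TPM and Srsf6 17.9 and 16.7 TPM. The paralog Tra2a had 15.8 and 15.6 TPM, below both values of Srsf6 and of Tra2b.

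At the low end, Srsf4 had 5.72 and 5.33 TPM and Srsf9 had 4.40 and 4.55 TPM. Srsf12 was the one gene of the set that was not detected, at 0 and 0.01 TPM with 0 and 3 expected counts. At this depth a count of 0 allows up to 0.132 CPM, with counts scaled to the total of replicate 1.

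Of the hnRNP genes, Hnrnpa2b1 was the highest of the whole set by TPM of the main table, with 163 and 140 TPM. Its protein is known for binding and moving RNA in nucleus and cytoplasm. Hnrnpk, whose KH domains bind C-rich RNA, had 133 and 119 TPM, so its values and those of Srsf5 overlapped. In the alignment-free table Hnrnpk stood above Hnrnpa2b1, with 286 and 249 TPM against 271 and 233 TPM. The related Hnrnph1 and Hnrnpf, which bind runs of G, had 98.4 and 83.7 TPM and 82.0 and 76.9 TPM.

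A middle group of hnRNP genes followed. Hnrnpu, a nuclear scaffold protein, had 42.3 and 38.0 TPM. Hnrnpdl had 41.3 and 37.4 TPM, and the U-tract binder Hnrnpc 36.6 and 32.4 TPM. The splicing repressor Hnrnpa1 had 30.2 and 28.1 TPM, a fraction of the level of its paralog Hnrnpa2b1 in both libraries. Hnrnpl, which binds CA repeats, had 28.0 and 24.5 TPM, and Hnrnpm 30.4 and 20.1 TPM. Hnrnph2, Hnrnpab, Hnrnpa3, Hnrnpul1, Hnrnpr, Hnrnph3, Hnrnpul2 and Hnrnpd had mean levels between 8.73 and 17.6 TPM. The lowest were Hnrnpll, known in mouse T cells for the splicing of CD45, with 6.28 and 5.23 TPM, and Hnrnpa0 with 4.80 and 4.13 TPM.

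For 3' splice site recognition, Sf3b1 was high with 69.4 and 65.4 TPM. U2af2, which binds the pyrimidine tract, had 14.5 and 15.3 TPM. U2af1, which binds the AG at the intron end, had 7.25 and 7.84 TPM. By TPM of the main table the 3 genes thus had separate levels in both libraries. There the larger U2AF subunit had about double the level of the small one, with ranges that did not overlap. In the alignment-free table the U2AF genes were much nearer, with 23.8 and 23.6 TPM for U2af2 against 21.1 and 21.4 TPM for U2af1.

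**Figure D1:**
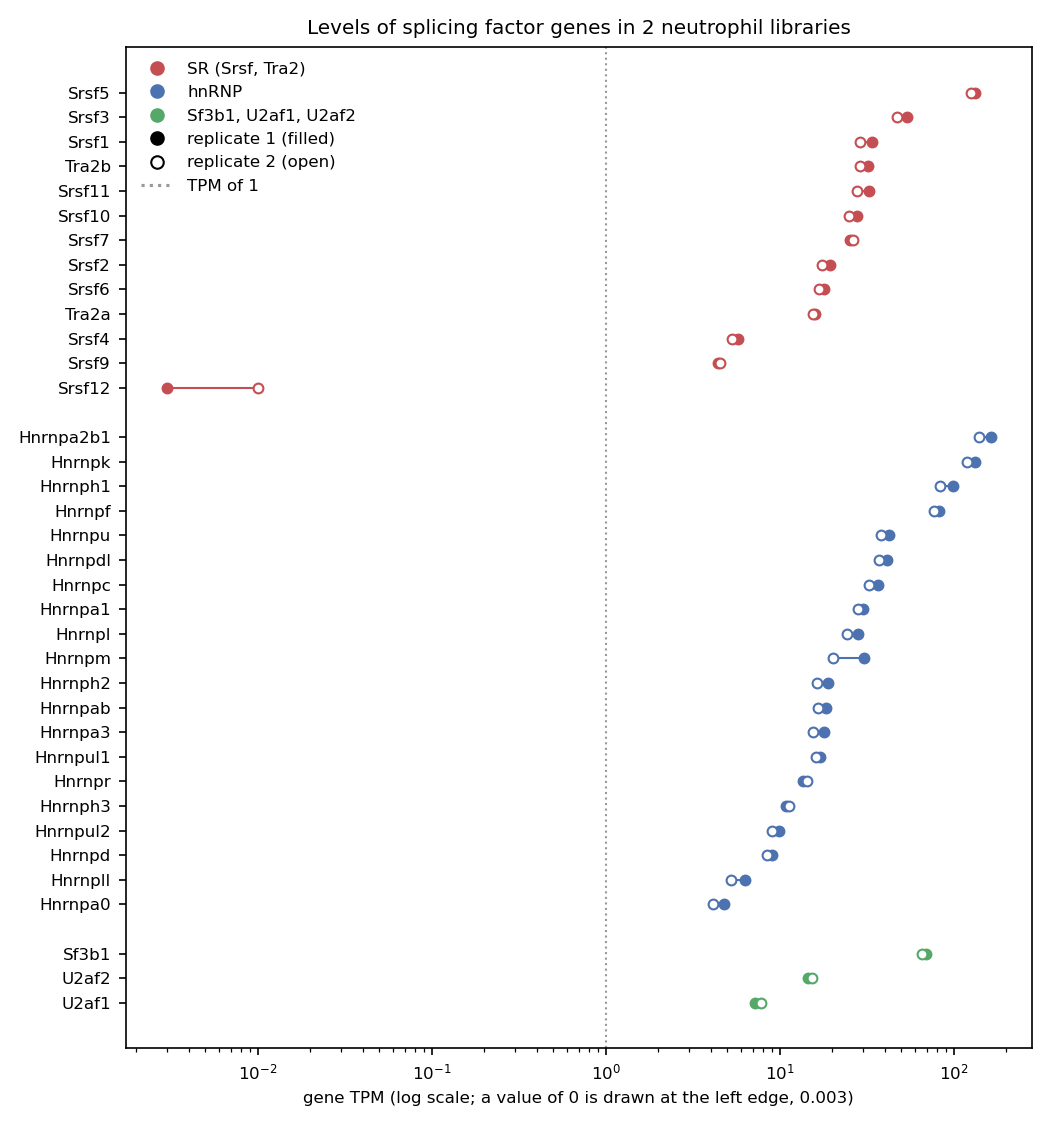
Gene TPM on a log axis for the 36 splicing factor genes, in rows grouped as SR, hnRNP and 3' splice site genes; filled points are replicate 1, open points replicate 2, and the dotted line marks a TPM of 1. All genes but Srsf12 lie to the right of the line. The points of the same gene lie close together except for Srsf12 and, among the detected genes, Hnrnpm.

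Much of this RNA was not in transcripts typed as protein coding. The annotation lists 322 transcripts for the 36 genes, of which 146 are typed protein coding, 92 retained intron, 44 nonsense-mediated decay and 40 processed transcript, a type for RNA with no open reading frame assigned. Protein-coding transcripts held 46.2% and 47.2% of the summed TPM of the set. Retained-intron transcripts held 33% and 32.1%, processed transcripts 13.9% and 13.5%, and decay-typed transcripts 6.85% and 7.23%.

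Per gene, the share of TPM in protein-coding transcripts had a median of 52.8% and 50.7% over the 35 detected splicing factor genes, against 74.7% and 75.1% over detected genes with a protein-coding transcript. The coding share was under 50% in both libraries for 14 of the 29 detected splicing factor genes that have a retained-intron or decay-typed transcript (48.3%), against a background of 25% of genes with such a transcript. The 14 were Srsf2, Srsf3, Srsf7, Srsf11, Tra2a and Tra2b among 11 SR genes, Hnrnpa2b1, Hnrnpd, Hnrnph3, Hnrnpk, Hnrnpl, Hnrnpll and Hnrnpu among 15 hnRNP genes, and Sf3b1. Read with any other transcript type as the condition, the count was 16 of 31 (51.6%) against 23%, which adds Hnrnph1 and Srsf10. That wider count was chosen after the values were seen.

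Retained-intron share was at least 20% in both libraries for 20 of 27 genes with such a transcript (74.1%), against a background of 51.9%. The same count was 14 of 27 (51.9%) against 34.2% by expected counts, which are not divided by length, and 15 of 19 (78.9%) against 50.8% on M4. In the alignment-free table it was 16 of 27 (59.3%) against 57.6%, which is near the background. The median share over those 27 genes was 26.2% and 29.6%, against 24.6% and 24.2% for all such genes, so by the median both stood close. More of the splicing factor genes have such a transcript annotated (77.1% of those detected, against 66.6%). Decay-typed transcripts are annotated for 68.6% of the detected splicing factor genes, against 32.8%. Their share was at least 20% in 6 of 24 splicing factor genes (25%), against 15.9%. That became 9 of 24 (37.5%) against 20.7% in the alignment-free table, 5 of 17 (29.4%) against 17.9% on M4 and 3 of 24 (12.5%) against 14.4% by expected counts.

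**Figure D2:**
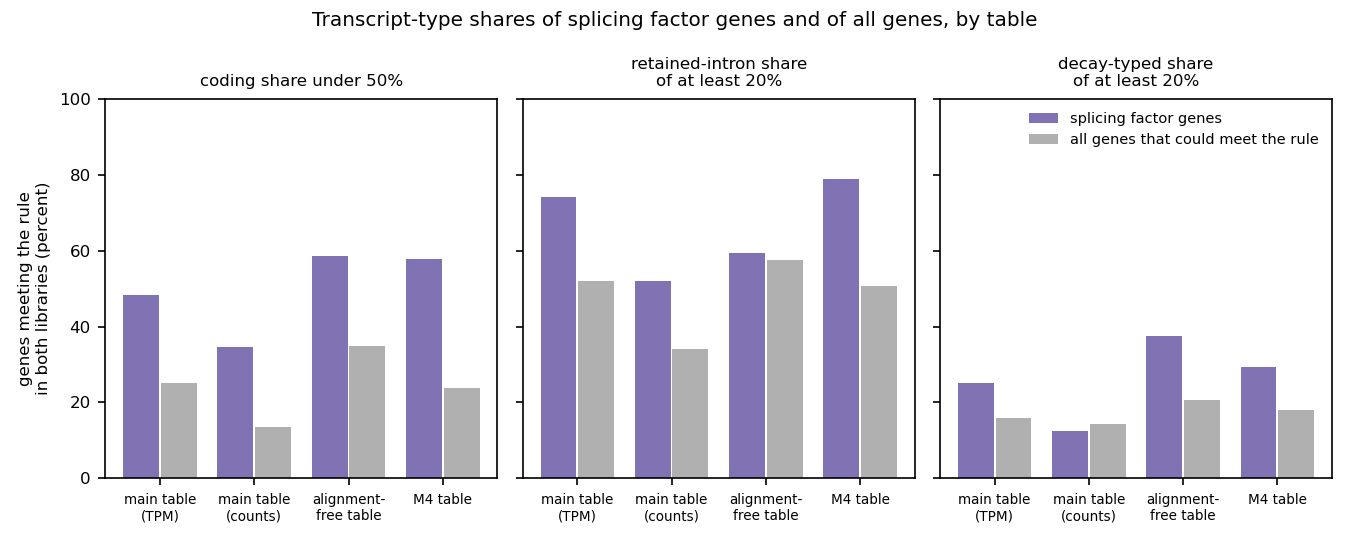
Percent of genes that met each rule in both libraries, for splicing factor genes (purple) and for all genes that could meet it (grey), under TPM and expected counts of the main table, the alignment-free table and the older M4 table. The purple bar is above the grey one for the coding rule in all 4 readings (48.3% against 25% in the main one), and below it for the decay rule when counts are used.

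The split between classes was uneven. Coding share had a median of 36.1% and 38.4% for SR genes, 67.5% and 70.3% for hnRNP genes, and 52.8% and 48% for the 3 genes of 3' splice site recognition. The annotation differs too. Decay-typed transcripts are annotated for 91.7% of detected SR genes and 50% of hnRNP genes, and retained-intron transcripts for 83.3% and 70%. Among detected genes with either type, 6 of 11 SR genes and 7 of 15 hnRNP genes had a coding share under 50% in both libraries. The part of annotation in the class medians was not tested. By whole-gene level, SR genes stood 0.28 ± 0.21 above hnRNP genes as a difference of medians of log2(TPM + 1) (SD, n = 2), with 0.13 in replicate 1 and 0.43 in replicate 2. By the level of protein-coding transcripts alone, SR genes stood below hnRNP genes, with a difference of -0.83 ± 0.01. Median coding levels were 7.94 and 6.96 TPM for SR genes and 15.1 and 13.2 TPM for hnRNP genes. The direction of the class difference therefore depends on which RNA is counted. The whole-gene difference was smaller on M4, at 0.08 ± 0.01.

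Single genes changed places in the same way. Hnrnpf had all of its level in coding transcripts, mainly Hnrnpf-210 with 64.9 and 60.5 TPM, and ranked 1 by coding level after ranking 5 by gene level. Hnrnph1 ranked 4 by gene level and 26 by coding level, with 5.53 and 7.03 TPM in coding transcripts. Processed transcripts held 94.4% and 91.6% of Hnrnph1, led by Hnrnph1-213 with 29.1 and 23.8 TPM. Srsf3 ranked 7 by gene level and 25 by coding level, since Srsf3-202, its one coding transcript, had 6.21 and 6.38 TPM. Hnrnpab, Hnrnph2 and Hnrnpa0 were likewise wholly coding, with no other type annotated, and Hnrnpc had a coding share of 99.1% and 98.2%.

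**Figure D3:**
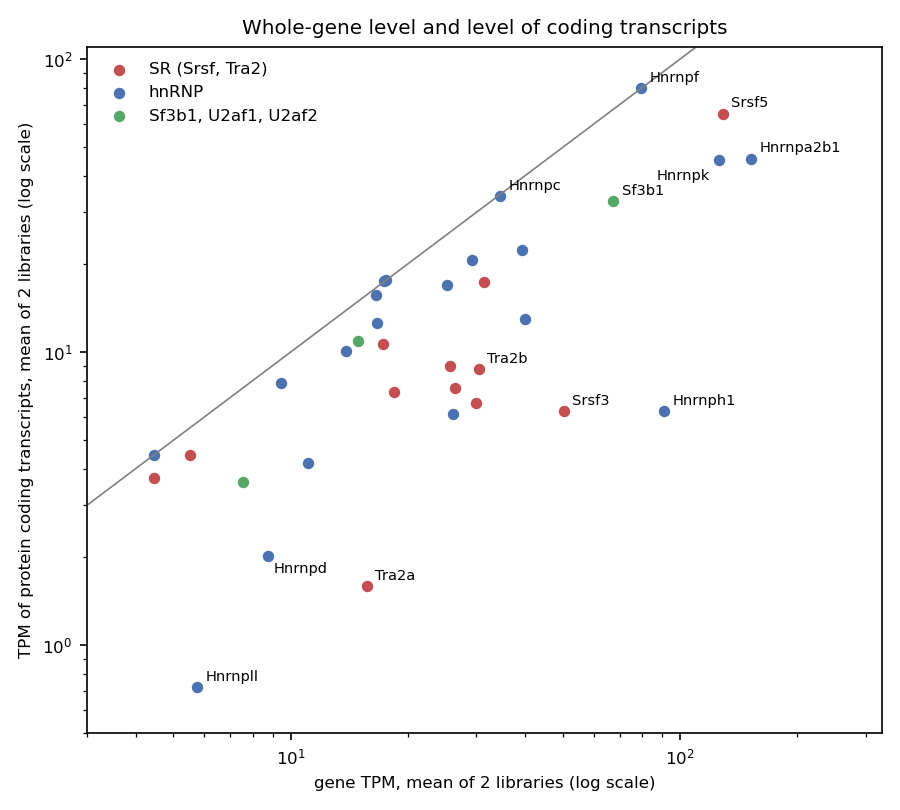
Mean level of protein-coding transcripts against mean gene level over 2 libraries, both in TPM on log axes, 1 point per detected gene, with the line of equality. Hnrnpf and Hnrnpc lie on the line, while Hnrnph1, Srsf3, Tra2a and Hnrnpll lie far below it.

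**Figure D4:**
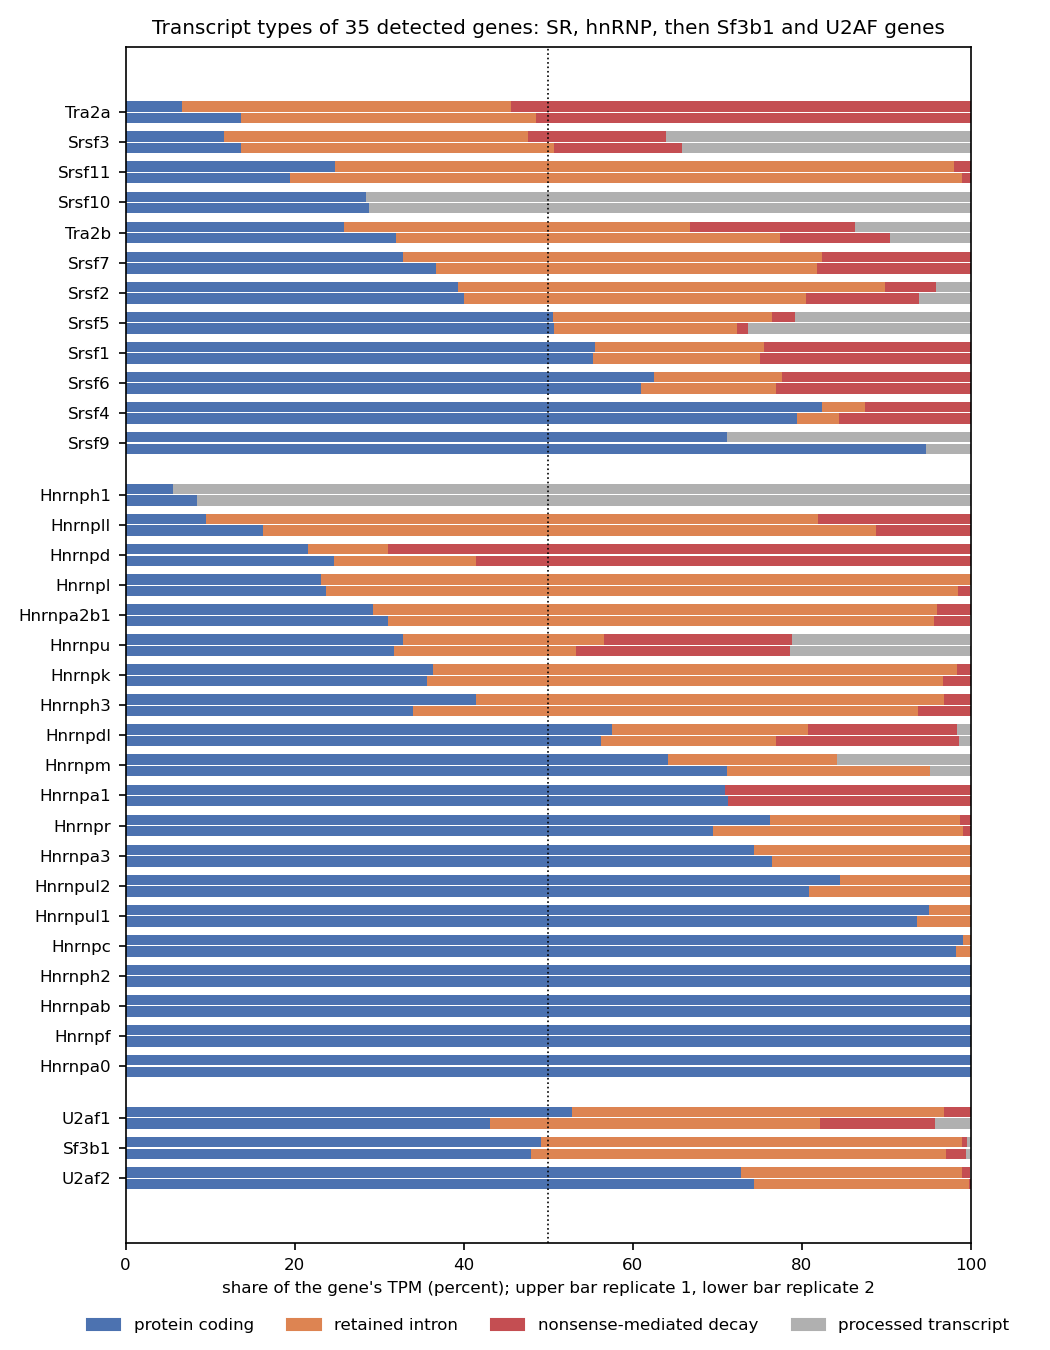
Percent of each gene's TPM by transcript type, with replicate 1 as the upper and replicate 2 as the lower bar of each gene, ordered by coding share within the SR, hnRNP and 3' splice site groups; the dotted line marks 50%. The largest decay-typed parts (red) are those of Hnrnpd and Tra2a, and the largest retained-intron parts (orange) those of Srsf11, Hnrnpl and Hnrnpll.

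By TPM of the main table, decay-typed transcripts were the largest type in 2 genes. Hnrnpd, also known as AUF1 and as a factor that binds AU-rich elements and promotes mRNA decay, had 68.9% and 58.5% of its level in this type. Its leading transcript Hnrnpd-208 had 3.83 and 2.69 TPM, and the shares were lower in the alignment-free table (42.2% and 38.4%) and by expected counts (44.1% and 41.1%). In the alignment-free table the coding transcripts of Hnrnpd together stood above the decay-typed ones in both libraries. By expected counts its coding share was no longer under 50% in both, so the lead depends on the reading. Tra2a had 54.4% and 51.4%, but 63.3% and 62.8% in the alignment-free table and 41.9% and 40.9% by expected counts. All of its decay-typed level was in Tra2a-202 at 8.62 and 8.00 TPM, with deposited interval bounds of 7.86 to 8.94 TPM and 7.25 to 8.42 TPM. The coding transcript Tra2a-204 had 1.06 and 0.61 TPM, below those bounds in both libraries. Tra2a-201, the other coding transcript, was listed at 0 in replicate 1 and at 1.52 TPM in replicate 2.

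In 3 further genes named by the rule for this type the share was smaller. Hnrnpa1 had 29.1% and 28.7%, led by Hnrnpa1-204 with 6.19 and 5.63 TPM. Its share was 38.9% and 35.4% in the alignment-free table and 38.7% and 38.1% by expected counts. Srsf1 had 24.5% and 24.9%, all of it in Srsf1-204 with 8.33 and 7.16 TPM, but 7.19% and 7.25% when counts were used. Hnrnpu had 22.2% and 25.3%, led by Hnrnpu-206 with 5.36 and 6.58 TPM, but 40.3% and 37.6% in the alignment-free table and 11.1% and 14.4% by expected counts. The sixth gene over 20% was Srsf6 with 22.4% and 22.97%.

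Of the 17 decay-typed transcripts that reached a TPM of 1 in each library, 4 carry their stop codon in an internal cassette exon that no coding transcript of the gene overlaps, in Tra2a, Tra2b, Srsf3 and Srsf7. Srsf6-201 has its stop in exon 3 of 7, which lies in an intron of Srsf6-203, the leading coding transcript. That stop is shared with Srsf6-202, typed as coding at 0.07 and 0.13 TPM. A further 6 transcripts, among them Hnrnpd-208, Hnrnpa1-204 and Hnrnpa2b1-209, use the stop codon of a coding transcript in an exon that overlaps the leading coding one, with at least 1 intron after it. In Tra2a-202 the cassette exon is the second of 9 exons, 306 nt long at chr6:49252803-49253108 on the minus strand (GRCm38), and 7 junctions follow the stop. In Tra2b-206 it is the second of 10 exons, 276 nt long at chr16:22258986-22259261 on the minus strand, and 8 junctions follow. Srsf3-201 has its stop in exon 4, of 456 nt at chr17:29039454-29039909 on the plus strand, and Srsf7-203 likewise in exon 4, of 460 nt at chr17:80204622-80205081 on the minus strand.

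The coding-frame start of each of these exons, from its first base to the premature stop, is shown because that stretch is what sets the transcript's type. The sequences come from the M21 transcripts on GRCm38, and capitals mark the stop codon.
Tra2a-202, chr6:49252965-49253108, minus strand: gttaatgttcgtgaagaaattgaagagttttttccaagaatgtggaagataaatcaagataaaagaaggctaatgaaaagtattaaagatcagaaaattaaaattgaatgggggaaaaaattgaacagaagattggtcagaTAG
Tra2b-206, chr16:22259181-22259261, minus strand: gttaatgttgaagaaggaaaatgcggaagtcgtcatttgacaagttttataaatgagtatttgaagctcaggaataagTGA
Srsf3-201, chr17:29039454-29039487, plus strand: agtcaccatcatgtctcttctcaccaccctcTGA
Srsf7-203, chr17:80205054-80205081, minus strand: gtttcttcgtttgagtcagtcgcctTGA
The Tra2a and Tra2b stretches share their first 9 bases and run on in purine-rich sequence. Over the whole exon, the letters GAAGAA occurred 4 times in the Tra2a cassette and 3 times in the Tra2b cassette, without overlap between matches. At least 1 match was found in 23.4% and 22.1% of internal exons of coding transcripts within 10% of those lengths. The reverse complement TTCTTC did not occur in either exon (11.3% and 10.6% of such exons hold it). The triplet GAA occurred 32 and 28 times. The cassettes of Srsf3 and Srsf7 held 0 and 1 match to GAAGAA, with 31.6% and 30.7% of exons of like length holding it.

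These cassette transcripts were present next to their coding partners. Tra2b-206 had 6.11 and 3.38 TPM. Tra2b-204, the leading coding transcript by the sum over both libraries, had 5.13 and 4.18 TPM. In replicate 2 the gene's other coding transcript was higher than Tra2b-204. Srsf3-201 had 6.03 and 5.69 TPM, against 6.21 and 6.38 TPM for Srsf3-202, with deposited bounds of 5.06 to 6.66 TPM and 5.55 to 6.77 TPM in replicate 1, which overlap. In the alignment-free table Srsf3-201 stood above Srsf3-202 in both libraries, with 10.3 and 10.7 TPM against 4.03 and 3.62 TPM. Srsf7-203 had 4.44 and 4.77 TPM, against 5.67 and 4.68 TPM for Srsf7-201, the leading one of 4 coding transcripts, and 8.30 and 9.61 TPM for these together. Over all coding transcripts, Tra2b had 8.28 and 9.21 TPM and Tra2a 1.06 and 2.13 TPM. By TPM of the main table and taken alone, Tra2a-202 was thus several times the coding level of its gene. Srsf3-201 was near that of its gene there, and Tra2b-206 and Srsf7-203 were below theirs. Other transcripts that hold these exons are left out of that comparison. One is the decay-typed Srsf3-206, with its stop in the same 456 nt exon, at 2.72 and 1.4 TPM.

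**Figure D5:**
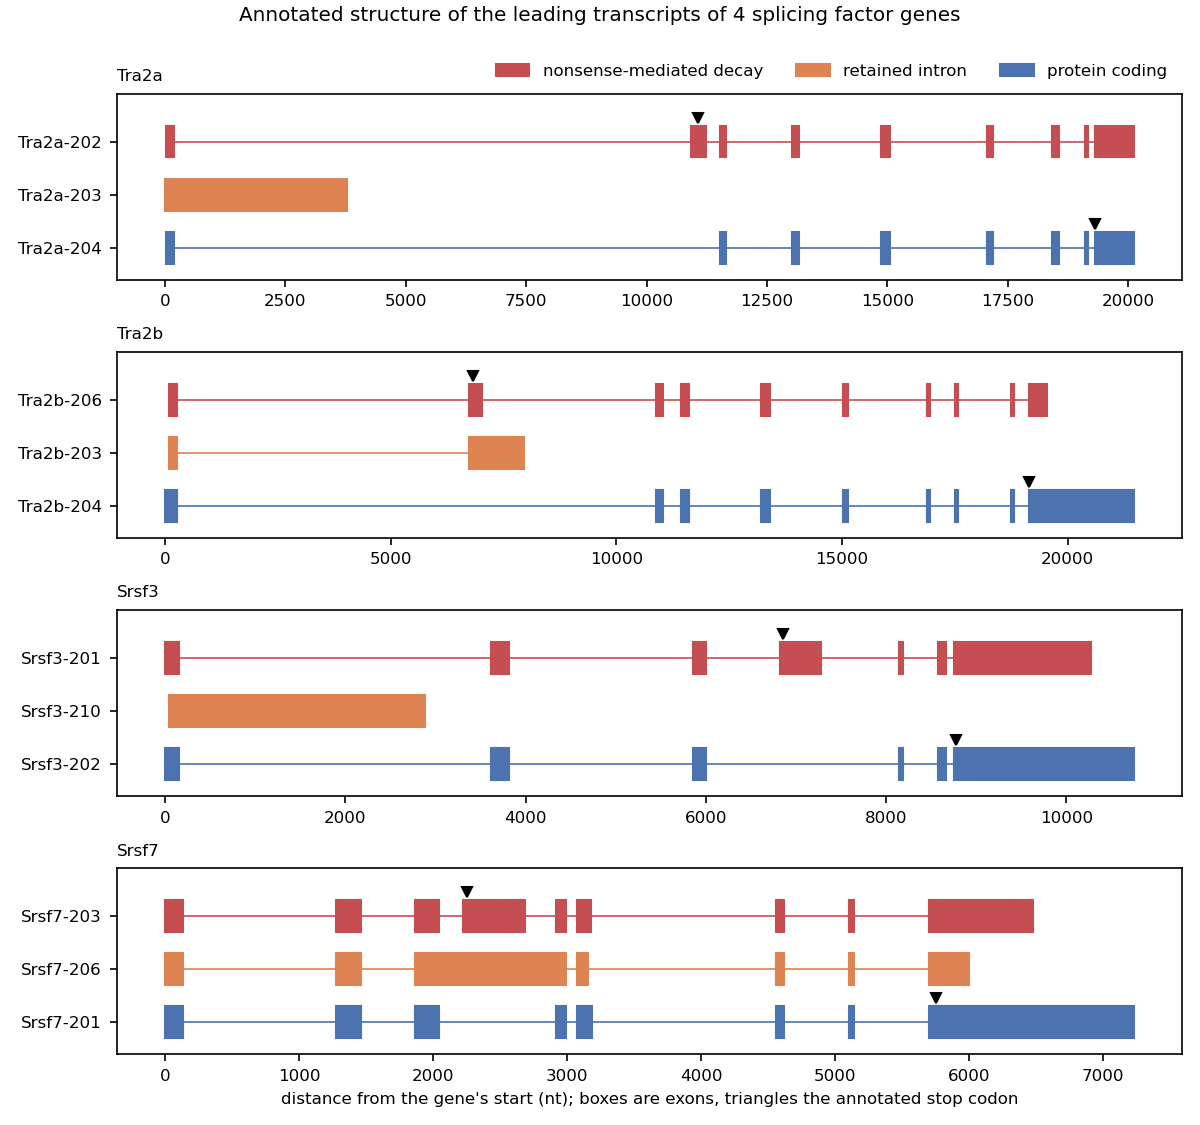
Exon structure of the leading decay-typed (red), retained-intron (orange) and coding (blue) transcripts of Tra2a, Tra2b, Srsf3 and Srsf7 by distance from the gene's start in nt; boxes are exons and triangles mark annotated stop codons. The decay-typed transcript of each gene has 1 exon that the coding transcript lacks, and its triangle lies in that exon.

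Tra2b also had the largest part of its level, 41% and 45.4%, in retained-intron transcripts. Its leading transcript Tra2b-203 had 9.44 and 9.76 TPM. The second exon of Tra2b-203 starts at the same base as the 276 nt cassette exon and is 1198 nt long in all, so the annotated forms share the 5' end of that exon and differ in where it ends. Tra2a-203, the leading retained-intron transcript of Tra2a, had 4.83 and 4.32 TPM and extends the first exon into the first intron.

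Retained-intron transcripts were the largest part of several other genes. Srsf11 had 73.2% and 79.4% of its level in this type, led on the mean by Srsf11-208 with 6.77 and 5.07 TPM. In replicate 2 Srsf11-213 was higher, at 5.22 TPM. Hnrnpl had 76.9% and 74.8%, led by Hnrnpl-206 with 11.1 and 10.1 TPM, against 2.30 and 1.96 TPM for the coding Hnrnpl-202. Hnrnpll had 72.3% and 72.6%, led on the mean by Hnrnpll-204 with 1.59 and 1.24 TPM, with Hnrnpll-207 higher in replicate 2 at 1.29 TPM. These shares stayed at 63.3% or higher in the alignment-free table and at 68.7% or higher by expected counts.

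Hnrnpa2b1 had 66.7% and 64.5% in this type, led by Hnrnpa2b1-208 with 56.9 and 44.8 TPM, the highest of the 92 retained-intron transcripts of the set. Hnrnpk had 62% and 61%, led by Hnrnpk-209 with 37.1 and 28.8 TPM. By expected counts the Hnrnpk share was 33% and 29.5%, while that of Hnrnpa2b1 was 68.9% in both libraries. Sf3b1 was nearly evenly split, with coding Sf3b1-201 at 34.1 and 31.4 TPM and retained-intron Sf3b1-203 at 19.2 and 18.8 TPM. U2af1 had 44% and 39% in retained-intron transcripts, led by U2af1-204 with 1.60 and 1.55 TPM, and U2af2 had 26.2% and 25.4%, led by U2af2-206 with 1.74 and 1.15 TPM.

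The type name covers more than whole introns. Of 61 retained-intron transcripts that reached a TPM of 1 in each library, 26 span a whole intron of a coding transcript of the gene, and these held 52.4% and 52.8% of the TPM of the 61. The other 35 span no whole intron of a coding transcript of the gene, and how they lie against its introns was not examined as a set. Retained-intron transcripts are also short, with a median length of 923 nt among those 61 against 2271 nt for the 69 coding transcripts at that level, so a given number of reads gives them a higher TPM. Over all 92, the spanned introns are 41 annotated intervals of 19 genes that differ in start or end. Some overlap, as in Srsf2, where an interval of 1059 nt contains those of 686 and 269 nt. The 41 intervals have a median of 393 nt and a range of 21 to 2375 nt, and 40 of them begin with GT and end with AG.

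The splice sites of 3 of these introns are shown because each intron is held by the leading whole-intron transcript of its gene. Each 5' window has 3 exon bases and 6 intron bases, and each 3' window 20 intron bases and 3 exon bases, with the terminal dinucleotides of the intron in capitals.
Hnrnpa2b1-208, intron of 156 nt, 5' site at chr6:51463405-51463413, minus strand: tggGTaagt
Hnrnpa2b1-208, 3' site at chr6:51463252-51463274, minus strand: ctttacttctgttgaaacAGgct
Sf3b1-203, intron of 1813 nt, 5' site at chr1:55016370-55016378, minus strand: atgGTaatt
Sf3b1-203, 3' site at chr1:55014560-55014582, minus strand: gttgctgttcttttctgcAGgag
Srsf7-206, intron of 874 nt, 5' site at chr17:80205256-80205264, minus strand: cagGTattt
Srsf7-206, 3' site at chr17:80204385-80204407, minus strand: ttttctaacttaaaaaatAGgtc
The 874 nt intron of Srsf7 contains the cassette exon shown above, so Srsf7-206, with 4.49 and 5.30 TPM, holds the poison exon together with the intron on both sides of it. In Hnrnpa2b1 the 156 nt intron lies right after the exon that holds the stop codon of Hnrnpa2b1-209, a decay-typed transcript with 6.52 and 5.87 TPM. That stop codon is also the one of 5 coding transcripts of the gene, which had 33.04 and 26.96 TPM together. The intron thus lies after their coding stop and, unlike that of Srsf7, holds no exon shown here with a premature stop.

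The 2 libraries gave close values. No splicing factor gene was at least 2-fold apart in TPM + 1 (0 of 35, against a background of 0.196% of genes with a protein-coding transcript), and in the scaled counts the number was also 0. A lower level in replicate 2 was seen for 29 of 35 genes (82.9%), against 68.6% of genes, so the shift was broad. The median log2 ratio of replicate 2 to replicate 1 was -0.14 for these genes and -0.08 for detected genes with a protein-coding transcript, and -0.02 for the splicing factor genes after TMM scaling. Hnrnpm lay farthest apart at -0.57, with 20.1 TPM in replicate 2 and 30.4 TPM in replicate 1, and its count ratio scaled to the library totals was 0.859 (exact conditional binomial 95% interval 0.822 to 0.898, which covers counting error only). That interval excludes 1, but the ratio of counts was nearer to 1 than that of TPM. The short Hnrnpm-215, a processed transcript of 401 nt, was listed at 0 in replicate 2 and at 4.04 TPM in replicate 1. Srsf1 and Hnrnph1 followed, each at -0.23, with count ratios of 0.911 (0.882 to 0.94) and 0.924 (0.902 to 0.947).

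Shares of transcript types moved little. The largest change of any type between libraries was under 5 points for 23 of 35 genes and at least 10 points for 4. Srsf9 moved most, with 5.33% in replicate 2 and 28.9% in replicate 1 in processed transcripts, at 368 and 379 expected counts. Hnrnpd and U2af1 each moved by 10.4 points in decay-typed share, in opposite directions, at 975 and 1171 counts for Hnrnpd and 551 and 508 counts for U2af1 in replicates 2 and 1. Hnrnpm moved by 11.1 points in processed transcripts.

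Several genes share sequence or position with others, which limits how firmly reads can be assigned to them. A stretch of at least 100 nt at 95% identity to another gene's transcript was found for 17 of 36 genes, and for 14 of these it was in a pseudogene. Hnrnpa3 matched 34 pseudogenes, which summed to 10.7 and 6.84 TPM against 17.9 and 15.5 TPM for the gene. Hnrnpa1 matched 10 pseudogenes with 11.4 and 8.7 TPM, Hnrnpk matched 2 with 10.3 and 11.5 TPM, and Srsf5 matched 1 with 4.12 and 2.89 TPM. Exons of 11 genes overlap a gene on the opposite strand, such as Hnrnpu with Cox20 and Srsf2 with Mfsd11 and Mettl23, and exons of 3 overlap one on the same strand, such as Hnrnpm with March2. The strand setting of the counts is not given in the sources used here, so reads from such pairs may not be separable.

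Related gene lists gave the setting of the set. The kinases and import receptors of SR proteins were detected in 10 of 10 cases with medians of 10.3 and 9.10 TPM. Clk1, a kinase that phosphorylates SR proteins, was the highest with 135 and 117 TPM, of which 6.23% and 5.88% was coding and 61.4% and 62.6% was in retained-intron transcripts. Clk4 had 37.6 and 29.7 TPM, and Tnpo3, an import receptor for SR proteins, was the lowest with 8.21 and 6.69 TPM. Of other splicing regulators, 21 of 26 were detected, with medians of 9.13 and 8.88 TPM. Rbm39 with 124 and 121 TPM and Sfpq with 74.5 and 66.6 TPM were highest, and the neuronal Rbfox3 was listed at 0 in both libraries.

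Proteins of the U1 and U2 particles were detected in 24 of 25 cases at lower medians of 3.69 and 4.72 TPM. Snrnp70 with 43.2 and 45.9 TPM and Sf1 with 31.8 and 32.6 TPM were highest, and Sf3b5 with 0.56 and 0.74 TPM lowest. Both of the highest had a minor coding share, of 36.9% and 34.9% for Snrnp70 and of 23.6% and 26.9% for Sf1. The median coding share of this list was 77.1% and 72.9%, close to the 74.7% and 75.1% of detected genes with a protein-coding transcript. The factors of nonsense-mediated decay were detected in 14 of 14 cases with medians of 5.25 and 4.56 TPM. Smg1, the kinase that phosphorylates UPF1, had 15.3 and 13.7 TPM, Eif4a3 of the exon junction complex 8.25 and 10.01 TPM, and Smg8 1.81 and 2.12 TPM as the lowest. The median coding share of the decay factors was 84.3% and 77%, against 42.9% and 46.8% for the SR kinases and import receptors.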

How the data were processed

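Total RNA-seq libraries of neutrophils (1 group, 2 libraries) were used. The authors deposited per library, per the file headers, expected counts and TPM per gene and per transcript on GENCODE M21 and M4 (mm10), with each transcript's percent of its gene's TPM and interval bounds of TPM. An alignment-free M21 table with estimated counts and TPM was deposited too. The program behind each is not given in the sources used here. M21 was the main release. Entries that carry a number and no gene (26248) held 1.63e-04% and 2.16e-04% of counts and were left out. Transcript types came from the alignment-free table and were joined by transcript ID, and structures and sequences from GENCODE M21 (GRCm38).

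Detection needed a TPM of 1 or more in each library, and type shares are sums of the deposited percent values. Levels of lists are medians of log2(TPM + 1). Type shares, folds of counts scaled to library totals and the interval of the count ratio were tested on simulated data. Folds of TPM + 1 were not simulated. Kinase genes starting with Rps6k were left out of the ribosomal protein list. Named genes are the 10 highest and 5 lowest, the 5 with the highest share of each non-coding type, the 3 most apart between libraries, Sf3b1, both U2AF genes and both Tra2 genes, and the other genes of the set by their values. The members and lists were chosen with earlier results of these data known. Expected counts were rounded for edgeR 4.0.16 (TMM) and DESeq2 1.42.0 (size factors) in R 4.3.3. Other steps used Python 3.11.15, numpy 2.4.6, pandas 2.3.3, scipy 1.17.1, matplotlib 3.10.9 and BLAST 2.17.0. The alternatives were M4, the alignment-free table, counts in place of TPM, other minimums and pseudocounts, and each library alone.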

Additional observations from a re-analysis of the deposited data

How the results depend on the processing

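The count of detected genes (35, and 33 at a TPM of at least 5) and the count with a coding share under 50% stayed within 1.5 times under the alternatives run. The count under 50% was 14 in the main table and 10 to 17 elsewhere, and 8 of the 14 genes stayed under 50% in each M21 reading (main and posterior percent, expected counts, alignment-free TPM), which leaves out Hnrnpd, Hnrnph3, Hnrnpk, Hnrnpu, Sf3b1 and Srsf2. The SR minus hnRNP difference turned from 0.28 to -0.83 when protein-coding transcripts alone were counted. It was 0.08 by whole-gene level on M4, and 0.13 to 0.43 with each library alone. Median level (log2) was 4.42, and became 4.23 on M4, 5.35 in the alignment-free table and 7.87 when TPM was rescaled to genes with a protein-coding transcript (4.30 to 4.54 with each library alone). Median coding share was 51.7%, and became 44.8% in the alignment-free table, 70.4% by expected counts, 63.4% on M4 and 49.3% at a TPM of at least 5 (50.7% to 52.8% with each library alone). Median retained-intron share was 22.4%, and became 19.3%, 9.99%, 13.1% and 23.6% under those settings (21.6% to 23.1%). Median decay-typed share was 2.24%, and became 4.6%, 0.784%, 0% and 3.01% (2% to 2.48%). A decay-typed share of at least 20% was met by 6 genes in the main table, 9 in the alignment-free one, 5 on M4 and 3 by expected counts. M4 holds 235 of the 322 transcripts of these genes, and none of the retained-intron type for Hnrnpa2b1 or of the decay type for Tra2a and Hnrnpa1. Expected counts are not divided by length, so short transcripts weigh less. The cause of the other shifts was not tested. No paired analysis was possible because there is a single group. Depth limits Srsf9 most among the detected genes, with 379 and 368 counts.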
